A study of Homo sapiens with 9 samples.

Results

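The genes described are 42 members of the MYC transcription factor network and of nucleolar ribosome biogenesis. They were taken as a named list, and each was matched by gene symbol to 1 row of the 59699 rows in both tables of drug against DMSO that the authors deposited. All 42 were found, and all 42 passed the filter on low values in both tables. The cells were MOLM13, an established human acute myeloid leukaemia line that carries a KMT2A fusion, kept for 72 h with the solvent DMSO, with 1 µM iberdomide (CC-220) or with 50 nM mezigdomide (CC-92480). Each of the 3 groups had 3 libraries of poly(A)-selected RNA, 9 in all, and the drugs were given in DMSO, so every group carried the solvent. Both compounds act through cereblon, part of a ubiquitin ligase that then marks IKZF1 and IKZF3 for degradation. Their doses differ, so a difference between the treated groups is not one between the compounds at a matched dose. The line is 1 leukaemia from 1 donor, and nothing in the labels says that libraries of one group were separate cultures, so p-values measure only the spread among these libraries, and that spread may be technical.

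MYC is a basic helix-loop-helix leucine zipper factor that binds DNA as a dimer with MAX, most tightly at the E-box CACGTG. MXD1, MXI1, MXD3, MXD4, MNT and MGA also pair with MAX and occupy the same motif, but recruit repressor complexes in place of activators, and MXD1 and MXI1 are known to be induced as blood cells mature. Genes for ribosome assembly are the best known class of MYC targets. RNA polymerase I transcribes the ribosomal RNA precursor, small nucleolar ribonucleoproteins (snoRNPs) modify it, and assembly factors fold and cut it into the small and large ribosomal subunits.

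The E-box was sought in RefSeq promoter windows (build GRCh38.p14) that run from 250 bases before to 50 bases after an annotated start. Windows were found for 35 of the 42 members, and 13 of these 35 genes (37.1%) held CACGTG, which reads the same on both strands. Of all 27305 genes with a window 8.77% held it, and of 7285 genes tested that averaged at least 300 normalised counts 13.8% did. Among 28 matched members outside the MYC network the count was 11 (39.3%). The sites below are shown because they mark the MYC and MAX motif in members that fell under mezigdomide as deposited and in assembly genes not called. Those that fell are the assembly genes PES1, GAR1 and BYSL and the polyamine enzyme ODC1. Those not called are FBL, RRP9, WDR43 and UTP20. Each line gives 30 bases, 5′ to 3′ on the strand of the gene, with the E-box in capitals.
PES1, minus strand, chr22:30591880-30591909: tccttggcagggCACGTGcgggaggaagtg
GAR1, plus strand, chr4:109815781-109815810: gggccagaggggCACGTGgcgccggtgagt
BYSL, plus strand, chr6:41921515-41921544: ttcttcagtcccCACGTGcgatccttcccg
ODC1, minus strand, chr2:10448024-10448053: ccgggccccgggCACGTGtgcggcgcgcct
ODC1, minus strand, chr2:10447990-10448019: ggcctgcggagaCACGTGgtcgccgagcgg
FBL, minus strand, chr19:39846356-39846385: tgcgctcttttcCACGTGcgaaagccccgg
RRP9, minus strand, chr3:51941892-51941921: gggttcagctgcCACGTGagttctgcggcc
WDR43, plus strand, chr2:28894658-28894687: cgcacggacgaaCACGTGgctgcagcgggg
UTP20, plus strand, chr12:101280083-101280112: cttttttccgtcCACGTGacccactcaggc

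In GENCODE release 29 the motifs of PES1, GAR1, BYSL, FBL, RRP9 and WDR43 lie in an untranslated exon, both motifs of ODC1 lie in an intron and that of UTP20 lies upstream of the gene. The motif of PES1 begins 13 bases after the RefSeq start, that of FBL 6 bases after it and that of WDR43 3 bases after it. Of the 14 motifs found in members, 11 (78.6%) began between 25 bases before and 49 bases after the start. Over all windows 624 of 2821 motifs (22.1%) did so, where overlapping windows of a gene can count a site more than once. This interval was chosen after the positions were seen. The motif was present in 4 of 9 matched members that fell under mezigdomide as deposited. It was in 7 of 19 matched members outside the MYC network that were not called there. Of the 3 matched network members that rose (MXD1, MXI1 and MGA) 0 held it. Once the GC and length trend described below was taken out, PES1, GAR1 and BYSL were no longer called. The members that fell then were NPM3, WDR74, ODC1, UTP15 and TSR1, and of these only ODC1 held the motif. A match is a sequence, not a bound site, and no match says only that these letters are not in the window.

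**Figure D1:**
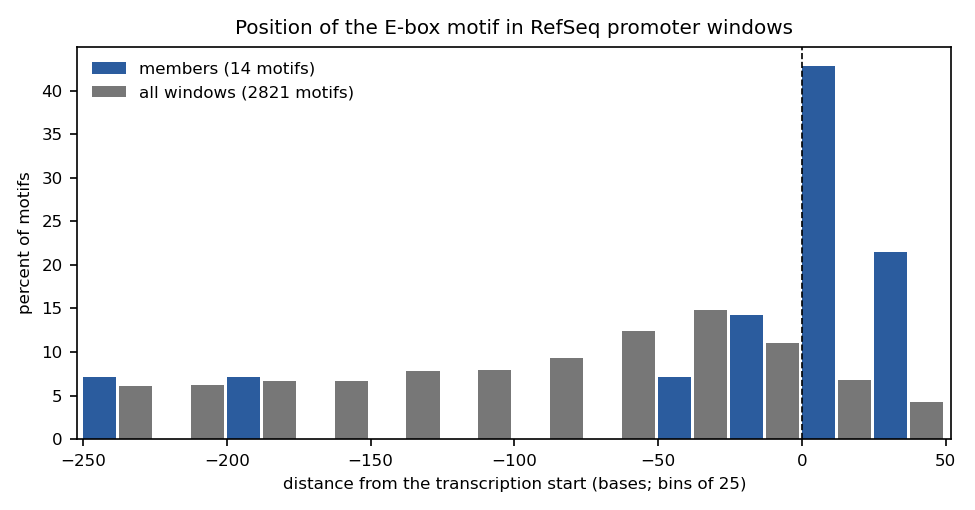
Position of the E-box motif relative to the RefSeq transcription start, in bins of 25 bases from 250 bases before to 50 after, as a percent of the motifs found. Blue bars are the 14 motifs in windows of the 42 genes and grey bars the 2821 motifs in all windows. The blue bars stand highest in the 25 bases after the start.

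The abundance of the 42 transcripts spans a wide range. Per kilobase of the longest basic GENCODE transcript, the mean over all libraries was 10032.4 normalised counts for the nucleolar protein nucleolin (NCL), 9125.17 for nucleophosmin (NPM1), 7207.49 for the rRNA methyltransferase fibrillarin (FBL) and 5754.59 for MYC. MYC therefore ranked 4 of 42 and stood above every other member of its network. Its partner MAX stood far lower, at 511.095 per kilobase, and the MAX-binding repressors ran from 138.539 (MXD3) to 819.942 (MXI1). Part of the NPM1 reads may not be separable from its 46 annotated pseudogene rows, whose summed mean was 15.1% of that of NPM1. The files hold no value per library, so the level of a gene in each group was derived from its overall mean and both fold changes and carries no replicate spread of its own. That spread enters through the standard error (SE) of each deposited log2 fold change, which was 0.057 to 0.15 for these genes under both drugs. In bulk RNA a change in the mix of cell states and a change per cell cannot be told apart.

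**Figure D2:**
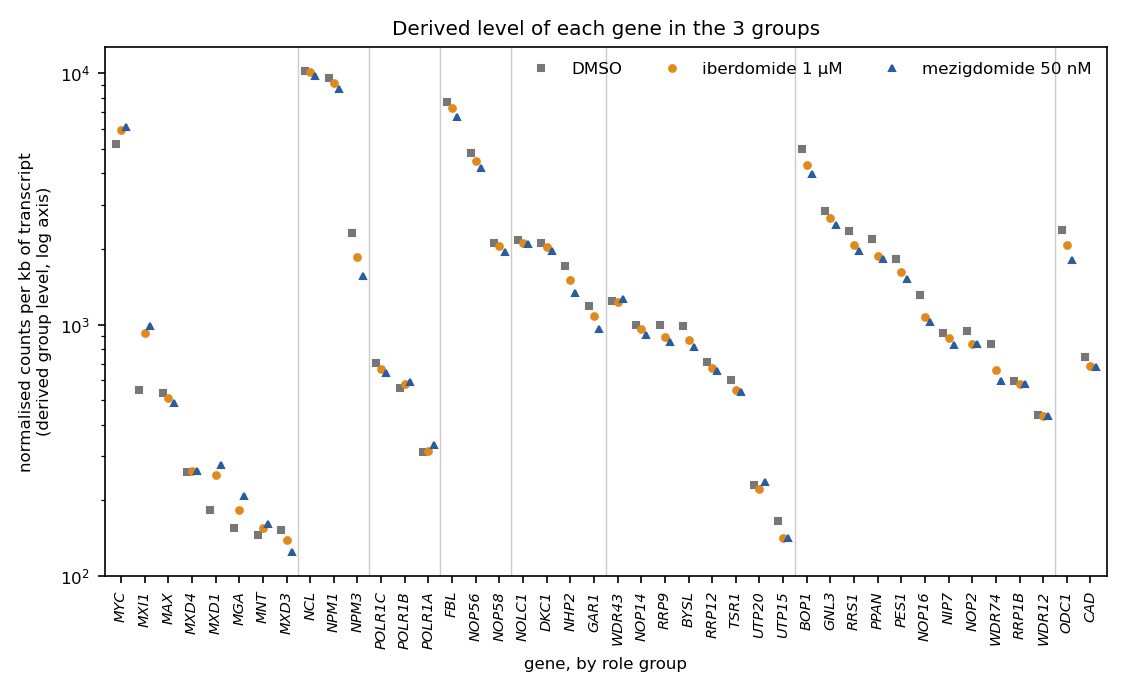
Derived level of each of the 42 genes in normalised counts per kilobase of transcript on a log axis, by role group, with grey squares for DMSO, orange circles for iberdomide and blue triangles for mezigdomide. MXI1 and MXD1 show the widest upward gaps from the grey squares, and most assembly genes show small downward steps.

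The first question was whether the MYC network itself differed after each drug. Transcripts of 2 MAX-binding repressors, MXI1 and MXD1, rose under both drugs, MYC rose by a smaller amount, and MGA rose under mezigdomide. In all 3 of 8 network genes rose under iberdomide and 4 of 8 under mezigdomide, and 0 fell under either drug by the authors' Wald test (at an unadjusted p under 0.05, 0 fell under iberdomide and 1, MXD3, under mezigdomide). For comparison, 7.3% of all genes tested were called higher under iberdomide and 10.4% under mezigdomide, called meaning an adjusted p under 0.05. Among genes averaging at least 300 normalised counts, a bound set just below the lowest member after the means were seen, these shares were 9.97% and 15%.

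MXI1 (chromosome 10, 110207605 to 110287365) had the largest change of all 42 genes. Its derived level was 1902.25 normalised counts in DMSO, 3210.29 with iberdomide and 3423.06 with mezigdomide. Both treated groups thus stood well above DMSO, 1.69-fold and 1.80-fold. The authors' deposited tables give log2 fold changes of 0.75 (SE 0.068, Wald test with Benjamini-Hochberg adjusted p = 1.18e-26) and 0.85 (SE 0.068, adjusted p = 6.29e-34). MXD1 (chromosome 2, 69897688 to 69942945), a repressor known from maturing myeloid cells, went from 1026.09 in DMSO to 1408.34 with iberdomide and 1544.18 with mezigdomide. The treated groups were thus 37.3% and 50.5% above DMSO, with log2 values of 0.46 (SE 0.12, adjusted p = 0.00177) and 0.59 (SE 0.12, adjusted p = 1.28e-05) per the authors' deposited tables.

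MYC moved in the same direction but less. Its derived level was 12325.3 in DMSO, 14106.5 with iberdomide and 14414.3 with mezigdomide, so the treated groups were 14.5% and 16.9% above DMSO. The log2 fold changes were 0.19 (SE 0.065, Wald test adjusted p = 0.0239) and 0.23 (SE 0.065, adjusted p = 0.00417) per the authors' deposited tables. MGA, a large scaffold protein that carries a MAX-binding domain and joins a Polycomb complex, stood at 2238.9 in DMSO, 2651.72 with iberdomide and 2997.94 with mezigdomide. Under mezigdomide the authors' deposited table gives 0.42 (SE 0.15, adjusted p = 0.0269), and under iberdomide 0.24 (SE 0.15, adjusted p = 0.352). MGA has the longest transcript of the network, 14439 bases, and its mezigdomide value was 0.19 (adjusted p = 0.454) once the dependence of fold change on GC content and length, described below, was taken out.

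The other network genes were not called. MAX, the shared partner, had log2 fold changes of -0.064 (adjusted p = 0.798) and -0.12 (adjusted p = 0.428) per the authors' deposited tables. MNT, the repressor found in most tissues, stood at 0.10 (adjusted p = 0.769) and 0.15 (adjusted p = 0.52), and MXD4 at 0.014 (adjusted p = 0.958) and 0.017 (adjusted p = 0.931) per the authors' deposited tables. The 95% intervals for MXD4 ran from -0.15 to 0.18 under both drugs. MXD3, a repressor of the same family, was the other network gene besides MAX with values below 0, at -0.14 (adjusted p = 0.581) and -0.30 (adjusted p = 0.0678) per the authors' deposited tables. Its mezigdomide value passed when only genes with a mean of at least 50 entered the adjustment (adjusted p = 0.0475) or only protein-coding genes did (adjusted p = 0.0487). Exons of MXD3 overlap RAB24 on the same strand (18% of its exon bases), where its reads may not be separable with any kit. They also overlap PRELID1 on the opposite strand (22.5%), where reads may not be separable if the kit does not keep strand.

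**Figure D3:**
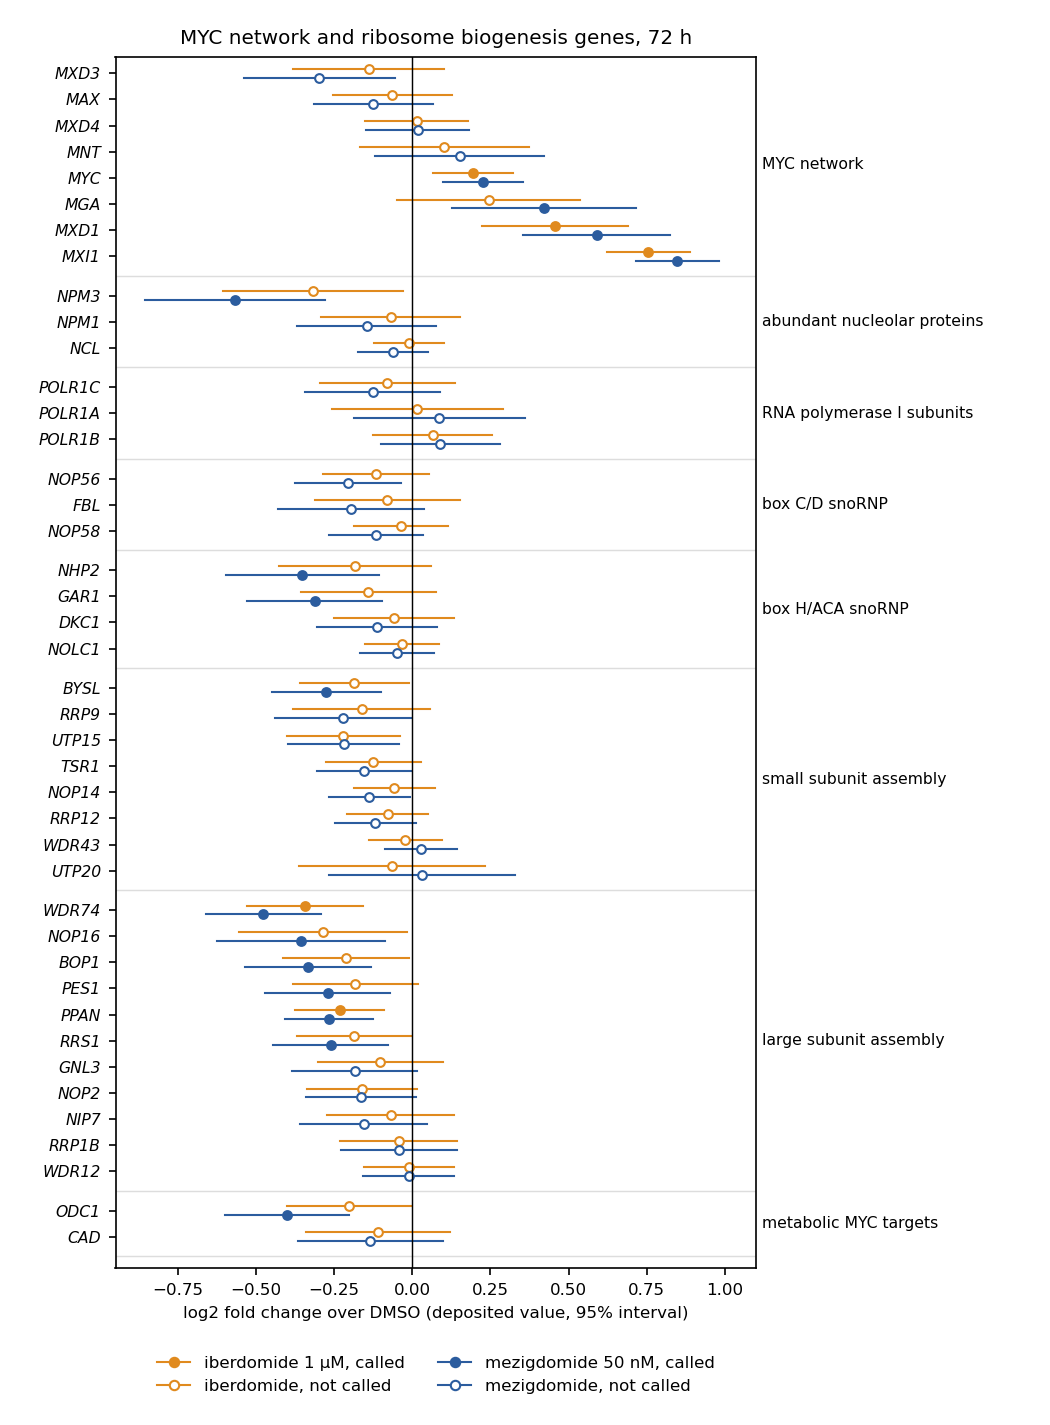
Deposited log2 fold change over DMSO of the 42 genes with 95% intervals, iberdomide in orange and mezigdomide in blue, grouped by role. Filled points passed an adjusted p of 0.05: 5 under iberdomide and 15 under mezigdomide. The rises are all in the MYC network and the falls all outside it.

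The second question was whether the 34 members outside the network, those of ribosome biogenesis and 2 metabolic MYC targets, followed. Under iberdomide 2 of 34 fell and 0 rose (at an unadjusted p under 0.05, 9 were lower and 0 higher by the authors' Wald test). With mezigdomide 11 of 34 fell and 0 rose (16 lower and 0 higher unadjusted). Their median log2 fold change was -0.11 with iberdomide and -0.16 with mezigdomide, against -0.0095 and -0.0070 over all genes tested. The share called lower over all genes was 6.77% under iberdomide and 10.7% under mezigdomide, and among genes averaging at least 300 normalised counts it was 8.44% and 15.6%. The members' share under iberdomide, 5.88%, was thus near the background, and that under mezigdomide, 32.4%, was above it as deposited. With a trend of fold change on GC content and transcript length taken out, the mezigdomide share was 14.7% against 13% of genes with a mean of at least 300, near the background. Over all 42 members 5 were called under iberdomide, 3 higher (7.14%) and 2 lower (4.76%). In both directions 14.1% of all genes were called there, and 18.4% of those with a mean of at least 300. Under mezigdomide 15 members were called, 4 higher (9.52%) and 11 lower (26.2%), against 21.2% and 30.6% in both directions. Set against genes with such means, the members' share was lower under iberdomide and somewhat higher under mezigdomide.

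WDR74, a factor of early large subunit assembly (chromosome 11, 62832342 to 62841809), fell under both drugs. Its derived level was 1447.24 in DMSO, 1140.28 with iberdomide and 1040.07 with mezigdomide. The log2 values were -0.34 (SE 0.094, Wald test adjusted p = 0.0032) and -0.48 (SE 0.095, adjusted p = 7.62e-06) per the authors' deposited tables. PPAN, another large subunit factor, was the other member outside the network called under both drugs, with levels of 3633.04, 3092.85 and 3021.47 in the same order. The authors' deposited tables give -0.23 (SE 0.072, adjusted p = 0.0126) and -0.27 (SE 0.072, adjusted p = 0.00203). PPAN shares 56.0% of its exon bases with the readthrough gene PPAN-P2RY11 on the same strand, so its reads are uncertain. Its value did not pass with the GC and length trend taken out (-0.10 with adjusted p = 0.46 and -0.054 with adjusted p = 0.7), whereas WDR74 passed in both (-0.28, adjusted p = 0.0248, and -0.37, adjusted p = 0.000847).

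In the large subunit group 6 of 11 members (54.5%) fell under mezigdomide as deposited, against 15.6% of genes with a mean of at least 300. With the GC and length trend taken out 1 of 11 fell (WDR74, 9.09%), against 13% of those genes. BOP1, PES1 and WDR12 form the PeBoW complex, which acts on the large subunit precursor, and as deposited BOP1 and PES1 were called under mezigdomide while WDR12 was not. BOP1 went from 11527.3 in DMSO to 9949.31 with iberdomide and 9142.07 with mezigdomide, and its log2 value under mezigdomide was -0.33 (SE 0.10, adjusted p = 0.00771) per the authors' deposited table. PES1 stood at -0.27 there (adjusted p = 0.0407) and WDR12 at -0.011 (adjusted p = 0.95), with a 95% interval from -0.16 to 0.13. With the trend taken out none of the 3 was called: BOP1 stood at -0.12 (adjusted p = 0.483), PES1 at -0.20 (adjusted p = 0.185) and WDR12 at -0.18 (adjusted p = 0.0716). PES1 was also not called with centred fold changes (adjusted p = 0.0556) or with no filter on low means (adjusted p = 0.0689). NOP16 fell by 0.36 (adjusted p = 0.0457) and RRS1, which helps to load the 5S particle, fell by 0.26 (adjusted p = 0.0278) per the authors' deposited table for mezigdomide. Neither was called with the trend taken out (adjusted p = 0.233 and 0.312), and NOP16 was lost with centring and with no filter too. The remaining members under mezigdomide, the methyltransferase NOP2, nucleostemin GNL3, NIP7 and RRP1B, ranged from -0.18 to -0.042 per the authors' deposited table and did not pass. Under iberdomide the values of all 11 lay between -0.34 and -0.011 per the authors' deposited table, and only WDR74 and PPAN passed.

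Among 8 small subunit factors 1, BYSL, fell under mezigdomide as deposited, and 2 others, UTP15 and TSR1, with the GC and length trend taken out. BYSL, a late factor of the small subunit precursor, was at 2003.32 in DMSO, 1760.99 with iberdomide and 1655.45 with mezigdomide, and the authors' deposited table gives -0.28 for mezigdomide (SE 0.089, adjusted p = 0.013). With the trend taken out BYSL stood at -0.17 (adjusted p = 0.193) and TSR1, which acts late on the same precursor, at -0.25 (adjusted p = 0.011). UTP15, of the processome that first packs the precursor, had nearly equal log2 values under both drugs, -0.22 (adjusted p = 0.0949) and -0.22 (adjusted p = 0.0694) per the authors' deposited tables. It passed under both once the GC and length trend was removed (-0.28, adjusted p = 0.0229, and -0.32, adjusted p = 0.0046). At the other end of the group, UTP20 and WDR43 stood at 0.031 (adjusted p = 0.932) and 0.028 (adjusted p = 0.825) per the authors' deposited table for mezigdomide. With the trend taken out they stood at -0.15 and -0.018. The deposited values of NOP14, RRP9, TSR1 and RRP12 lay between those of this pair and BYSL, at -0.22 to -0.12 per the authors' deposited table.

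The box H/ACA particle converts uridine to pseudouridine. As deposited 2 of the 4 members grouped under it (50%) fell under mezigdomide, against 15.6% of genes with a mean of at least 300. These were the small core proteins NHP2 and GAR1. With the GC and length trend taken out neither was called (-0.21, adjusted p = 0.279, and -0.24, adjusted p = 0.131), which left 0 of these 4 members. NOP10, of the same particle but counted with the further snoRNP genes, stood at -0.37 under mezigdomide as deposited (Wald test adjusted p = 0.0485). NHP2 had derived levels of 1481.18, 1304.42 and 1160.69 in DMSO, iberdomide and mezigdomide, and GAR1 had 1455.93, 1320.68 and 1172.01. Both thus lay about as low in the mezigdomide group, at changes of -21.6% and -19.5% from DMSO, with log2 values of -0.35 (adjusted p = 0.0267) and -0.31 (adjusted p = 0.0251) per the authors' deposited table. DKC1, the pseudouridine synthase of the same particle, stood at -0.11 (adjusted p = 0.491) and its nucleolar chaperone NOLC1 at -0.050 (adjusted p = 0.654) per the authors' deposited table. Exons of NHP2 overlap RMND5B on the opposite strand (27.4%). In the box C/D particle, which adds methyl groups to ribose, 0 of 3 members were called by the Wald test under either drug (unadjusted, 0 under iberdomide and 1, NOP56, under mezigdomide). Its mezigdomide values were -0.21 for NOP56 (adjusted p = 0.0759), -0.20 for FBL (adjusted p = 0.271) and -0.12 for NOP58 (adjusted p = 0.331) per the authors' deposited table.

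The 3 RNA polymerase I subunits among the members were not called under either drug (0 of 3 also at an unadjusted p under 0.05). This does not hold for the whole enzyme. Its subunits POLR1E, POLR1F and POLR1G, counted with the further genes below, were called lower under mezigdomide as deposited. The catalytic subunits POLR1A and POLR1B stood at 0.087 (adjusted p = 0.756) and 0.089 (adjusted p = 0.609) and POLR1C at -0.13 (adjusted p = 0.494) per the authors' deposited table for mezigdomide. The widest of the 3 intervals, that of POLR1A, ran from -0.19 to 0.36. With the GC and length trend taken out POLR1A stood at -0.11 and POLR1B at -0.016, so neither sign was stable. The abundant proteins nucleolin and nucleophosmin did not pass either, at -0.062 (adjusted p = 0.523) and -0.15 (adjusted p = 0.431) per the authors' deposited table for mezigdomide. For NCL, the most precise of all members, the 95% interval was -0.17 to 0.049. NPM3 (chromosome 10, 101781325 to 101783413), a small histone chaperone of the nucleoplasmin family, had the lowest mezigdomide value of the 42 genes. Its derived level was 2031.18 in DMSO, 1628.89 with iberdomide and 1370.77 with mezigdomide, a change of -32.5%. The authors' deposited tables give -0.32 (SE 0.15, adjusted p = 0.153) and -0.57 (SE 0.15, adjusted p = 0.00114).

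Both metabolic targets are enzymes at the entry of a pathway. Ornithine decarboxylase (ODC1, chromosome 2, 10439968 to 10448504), which commits ornithine to polyamines, had levels of 6332.71, 5505.51 and 4795.36 in DMSO, iberdomide and mezigdomide. It fell under mezigdomide (-0.40, SE 0.10, adjusted p = 0.000757) and was not called under iberdomide (-0.20, SE 0.10, adjusted p = 0.206) per the authors' deposited tables. CAD, which begins pyrimidine synthesis, stood at -0.11 (adjusted p = 0.681) and -0.13 (adjusted p = 0.5) per the authors' deposited tables.

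More members were called under mezigdomide than under iberdomide, but no member passed the test of the difference between the treated groups. The test of mezigdomide minus iberdomide was a two-sided normal test on the difference with Benjamini-Hochberg adjustment over 19497 genes. With the errors taken as independent it called 0 of 42 members, and 0 of 42 had an unadjusted p under 0.05. It called 0.108% of all genes. Taking the errors as correlated at 0.5, which the shared DMSO libraries make more realistic, also called 0 at the adjusted threshold. The largest differences on the low side were NPM3 at -0.25 (95% interval -0.66 to 0.16) and ODC1 at -0.20 (-0.48 to 0.082), and on the high side MGA at 0.18 (-0.24 to 0.59). For MYC the difference was 0.031 (-0.15 to 0.21) and for MXI1 0.093 (-0.095 to 0.28). Among members called under mezigdomide, most of these intervals leave room for a difference as large as the mezigdomide change itself. Those of MYC, MXI1, MXD1, WDR74 and PPAN are the exceptions. The intervals take the errors as independent and are narrower with correlated errors. Both the word most and the unadjusted count therefore depend on that choice.

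Fold changes in these tables varied with base composition and length. Across 10906 genes with a mean of at least 100, the mezigdomide log2 fold change declined with GC content (Spearman rho = -0.273, across genes, which are not independent replicates) and rose with transcript length (rho = 0.369). For iberdomide the values were -0.229 and 0.26. Members outside the network had a median GC content of 51.2% and a median transcript length of 2527.5 bases, against 48.0% and 3440 bases for all genes with a mean of at least 300. After a fitted trend with both was removed, 5 of 34 members outside the network fell under mezigdomide: NPM3, WDR74, ODC1, UTP15 and TSR1. That is 14.7%, against 9.06% of all genes tested and 13% of those with a mean of at least 300, so the share was then near the background. Over all 42 members, 3 rose and 5 fell after removal where 4 had risen and 11 had fallen before. The median of the 34 was -0.14 then, against -0.16 as deposited. Over genes with a mean of at least 300 the median was -0.026 then and -0.014 as deposited, so that of the 34 stayed below it. MXI1 (0.80), MXD1 (0.47) and MYC (0.28) rose under mezigdomide as before. Whether GC content and length act through the libraries or through the cells was not tested.

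**Figure D4:**
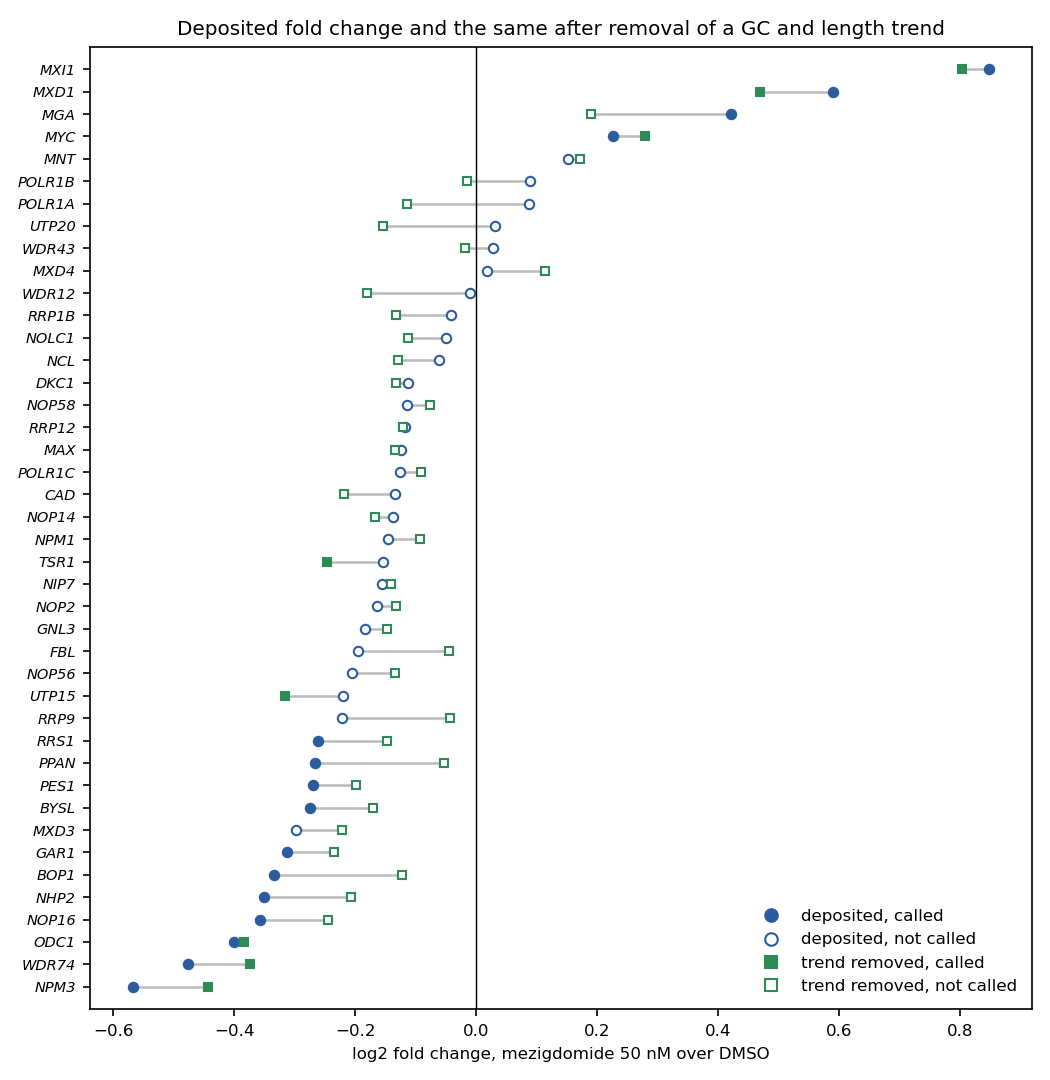
Log2 fold change of mezigdomide over DMSO for the 42 genes, as deposited (blue circles) and with the fitted dependence on GC and transcript length taken out (green squares), with filled symbols at an adjusted p under 0.05. NPM3, WDR74 and ODC1 at the bottom and MXI1, MXD1 and MYC at the top stay filled, while BOP1 and PPAN move towards 0.

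Other genes of these pathways, from lists drawn up by function, also had medians below 0 in every assembly list. Their counts stand against 8.44% of genes with a mean of at least 300 called lower under iberdomide and 15.6% under mezigdomide (13% with the GC and length trend taken out). Of 44 further small subunit factors 4 fell and 0 rose under iberdomide (unadjusted, 0 higher), and 9 fell and 0 rose under mezigdomide (unadjusted, 1 higher), with a median of -0.12 there. With the trend taken out 0 were lower under iberdomide and 9 under mezigdomide (20.5%). Both with the smallest p under mezigdomide were NOC4L (-0.51, adjusted p = 1.19e-07) and TBL3 (-0.40, adjusted p = 0.000357) per the authors' deposited table. Of 44 further large subunit factors 3 fell and 1 rose (LAS1L, 0.17, adjusted p = 0.0242, per the authors' deposited table) under iberdomide. Under mezigdomide 12 fell and 0 rose (unadjusted, 0 higher), with a median of -0.15 and with FTSJ3 (-0.29, adjusted p = 8.98e-07) and PELP1 (-0.34, adjusted p = 8.7e-06) in front per the authors' deposited table. With the trend taken out 9 were lower (20.5%). Further snoRNP genes had 4 of 15 lower under mezigdomide, led by RUVBL2 (-0.34, adjusted p = 0.00482) and COIL (-0.22, adjusted p = 0.0276) per the authors' deposited table. Other RNA polymerase I genes had 4 of 18 lower, led by POLR1G (-0.42, adjusted p = 0.0018) and POLR1E (-0.20, adjusted p = 0.0151) per the authors' deposited table for mezigdomide. With the trend taken out each of these lists had 2 lower, 13.3% of the snoRNP genes and 11.1% of the polymerase genes, near the background. Neither had a called gene under iberdomide by the Wald test (unadjusted, 0 of 15 and 1 of 18). Among other genes of the MYC and MLX network 3 of 19 rose and 3 fell under mezigdomide. That is 15.8% each way, near the 15% higher and 15.6% lower among genes with a mean of at least 300. With the trend taken out 2 rose and 4 fell. Those that rose as deposited were MYCBP (0.38, adjusted p = 0.00339), MYCL (0.40, adjusted p = 0.0045) and MLXIP (0.36, adjusted p = 0.0117) by the authors' Wald test. PIM1, a kinase that acts with MYC, fell by 1.13 (adjusted p = 1.19e-22) and the glucose-responsive factor MLXIPL fell by 0.71 (adjusted p = 4.19e-06) per the authors' deposited table. For PIM1 the iberdomide value was -1.21 (adjusted p = 1.11e-25) per the authors' deposited table.

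Of 16 proliferation genes 4 (25%) fell under iberdomide and 11 (68.8%) under mezigdomide, against 8.44% and 15.6% of genes with a mean of at least 300, with medians of -0.15 and -0.26, and 0 rose (unadjusted, 0 higher under either drug). MCM7 and MCM5, of the replicative helicase, stood at -0.36 (adjusted p = 4.67e-08) and -0.34 (adjusted p = 5.21e-08) per the authors' deposited table for mezigdomide. MKI67, TOP2A, CDK1, RRM1 and BIRC5 passed under neither drug. With the GC and length trend taken out 11 were again lower under mezigdomide. The part of proliferation in the falls of assembly genes was not tested. Myeloid genes of the labelled cell were all present, with means from 1643.74 (MEIS1) to 23352.6 (LYZ), and 4 of 8 rose under each drug, among them LYZ (1.51) and CSF1R (1.54) per the authors' deposited table for mezigdomide. Among markers of other lineages HBB and PPBP were at 0 and MS4A1, CD3E, ALB and EPCAM had means under 1, whereas PECAM1, which myeloid cells also express, stood at 4066.76.

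**Figure D5:**
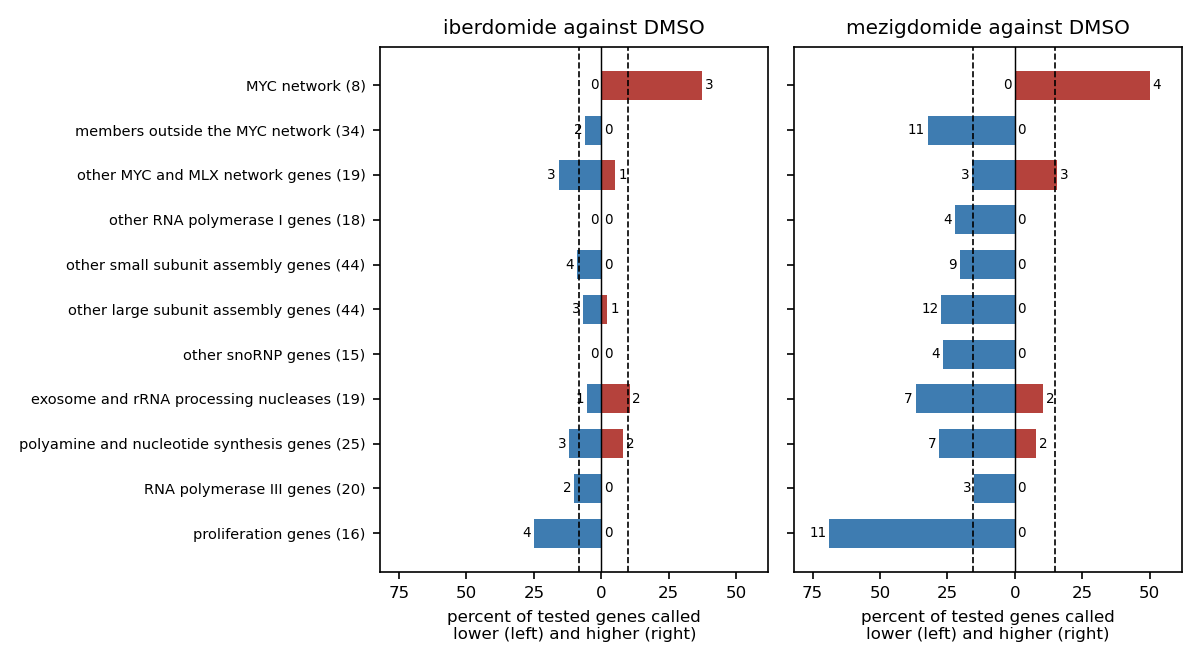
Percent of tested genes called lower (blue, left) and higher (red, right) in each list, with the number called at the end of each bar and the number tested in brackets, for iberdomide and mezigdomide. Dashed lines mark the share of genes averaging at least 300 normalised counts called in that direction, 8.44% and 9.97% under iberdomide and 15.6% and 15% under mezigdomide. The MYC network lies to the right under both drugs, and under mezigdomide the assembly and proliferation lists lie to the left.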

How the data were processed

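Libraries came from poly(A)-selected RNA with a NEBNext Ultra kit that the labels do not describe as keeping strand. HTSeq (0.6.1pl), DESeq2 and STAR (2.7.5a) are named in the submitters' processing notes, with SAMtools (1.95), Picard (2.9.4), bcl2fastq (2.20.0.422) and the build GRCh38, but without roles. The sources used here do not give the annotation that was counted.

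The authors deposited 2 tables of comparisons with no value per library. Per the file headers, each row holds a mean signal (normalised count over all 9 libraries), a log2 fold change, its standard error, a Wald score and p-values. The deposited score is that change divided by its error, to within 1.56e-13. Deposited fold changes are shrunk, so changes of low genes are understated. The summed mean was 2.35e+07 normalised counts, and the depth of single libraries is unknown. Rows on chromosome Y that repeat X genes (44) and rows with no gene name (92) were left out. Of the rest, 19497 (iberdomide) and 20819 (mezigdomide) genes had a deposited adjusted p and count as tested, and the others, of low mean, had none.

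Calls were made at an adjusted p under 0.05 by the authors' Wald test. Group levels were derived from the mean and both fold changes. The drug difference took both errors as independent, an upper limit, and 95% intervals used the same errors. The GC and length trend was a spline fit (5 knots each, scikit-learn 1.9.0) over genes with a mean of at least 100 and GENCODE release 29. The difference test and trend fit were tested on simulated data.

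The members and lists were chosen with earlier results of these data known. Named were all network genes, every called member, the lowest and highest of each role, and the 2 genes of smallest mezigdomide p in each further list (all called genes where 3 or fewer were called). Other names were chosen after their values were seen. RMRP, with 2 rows, was left out of its list. Promoter windows came from RefSeq.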

Additional observations from a re-analysis of the deposited data

How the results depend on the processing

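No paired analysis was possible because the deposited tables hold no value per library. For the same reason leaving out replicates, other normalizations and edgeR were not run. Under iberdomide 5 members were called, and 5 again with a mean of at least 50, no filter on low means, protein-coding genes only, centring, and removal of the GC and length trend (4 of the 5 shared). With Bonferroni adjustment 1 was called under iberdomide (MXI1) and 3 under mezigdomide (MXI1, MXD1 and WDR74). Under mezigdomide 15 members were called, 17 with a mean of at least 50 or protein-coding genes only (MXD3 and UTP15 added), 13 with no filter or with centring (NOP16 and PES1 lost), and 8 with the GC and length trend removed, of which 6 were shared. The trend removal ended the mezigdomide calls of MGA, NHP2, GAR1, BYSL, NOP16, RRS1, BOP1, PES1 and PPAN; its cause was not tested. The sign turned for uncalled values: under mezigdomide WDR12 with centring (0.0023) and POLR1B (-0.016), UTP20 (-0.15), POLR1A (-0.11) and WDR43 (-0.018) with the trend removed, under iberdomide POLR1A (-0.087) and FBL (0.0064) with the trend removed, and for the drug difference WDR12 with centring (0.0052) and POLR1B (-0.017) and PPAN (0.050) with the trend removed, besides POLR1A, RRP9, RRP1B, UTP15 and NOP2 with the trend removed and NOP2 with centring. The drug difference called 0 members in each of its 7 alternatives. Depth per library cannot be given by group, and the precision is that of the deposited errors.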

Other observations

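Genes that serve the maturation and decay of ribosomal and other RNA were mixed. Of 19 exosome and nuclease genes 7 fell and 2 rose under mezigdomide, with a median log2 fold change of -0.20. The 7 are 36.8%, against 15.6% of genes averaging 300 normalised counts or more; with the GC and length trend taken out 3 fell (15.8%, against 13%) and 1 rose. RPP40, a subunit of RNase P and RNase MRP, fell under both drugs (-0.50, adjusted p = 0.000893, and -0.51, adjusted p = 0.000399 per the authors' deposited tables). The nuclear exonuclease XRN2 rose under both (0.20, adjusted p = 0.00739, and 0.23, adjusted p = 0.00131 per the authors' deposited tables). RNA polymerase III genes had 3 of 20 lower and 0 higher under mezigdomide by the Wald test (unadjusted, 1 higher), and that 15% is close to the 15.6% of genes averaging 300 or more. They were POLR3G, the subunit known from stem cells and tumours (-0.56, adjusted p = 1.22e-08), GTF3C5 (-0.35, adjusted p = 0.000174) and POLR3K (-0.44, adjusted p = 0.024) per the authors' deposited table.

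Beyond ODC1 and CAD, 25 genes of polyamine and nucleotide synthesis had 2 higher (8%) and 7 lower (28%) under mezigdomide. Among genes with a mean of at least 300 the shares were 15% higher and 15.6% lower. With the trend taken out 2 were higher and 6 lower (24%, against 13% of genes with a mean of at least 300). Spermidine synthase SRM fell (-0.46, adjusted p = 1.74e-06), as did the mitochondrial serine enzyme SHMT2 (-0.45, adjusted p = 2.87e-06), while AZIN1, which frees ornithine decarboxylase from its antizyme, rose (0.27, adjusted p = 1.3e-05), each per the authors' deposited table for mezigdomide. The E-box was present in the promoter window of 17 of 38 matched further small subunit factors (44.7%). For further large subunit factors it was 14 of 39 (35.9%). Of genes tested with a mean of at least 300, 13.8% held it. The motif was also in 6 of 15 matched RNA polymerase III genes, which are not assembly factors. It was in 5 of 20 polyamine and nucleotide genes, 4 of 17 MYC and MLX network genes and 3 of 13 proliferation genes. Counts were lower for other snoRNP genes (2 of 11), exosome and nuclease genes (2 of 16) and other RNA polymerase I genes (1 of 15).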
